A study of Mus musculus with 188 samples.

Results

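The genes described here encode the proteins of the cytosolic ribosome, the particle that translates messenger RNA outside mitochondria. They were taken from the count table by symbol: Rpl or Rps, a number and at most the letter a, x, l or y, together with Rplp0, Rplp1, Rplp2 and Rpsa. S6 kinase genes and rows with pseudogene symbols were left out. The rule found 83 of 49585 gene rows, 51 for the large subunit (Rpl and Rplp) and 32 for the small subunit (Rps and Rpsa).

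Each sample is 1 keratinocyte from mouse tail epidermis at postnatal day 20, and all form 1 group, with 94 cells on each of 2 plates. The mice carried Lrig1-CreERT2 and RosaYFP, so the Lrig1 gene's activity decides which cells can be marked by yellow fluorescent protein. The sort kept cells without Cd34, with integrin alpha 6 (Itga6) and without that fluorescence, a gate for basal cells of the interfollicular epidermis, the skin between hair follicles. Each cell was made into a Smart-seq2 library, which copies polyadenylated RNA into full-length cDNA, and the study looked at differences between cells and at early differentiation. Animals are not named in the labels. The group therefore counts as 1 sample, no p-value was computed, and values are spreads over cells.

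Depth ran from 79868 to 1093805 counts per cell (median 369991), and all cells of both plates passed the quality limits. The 15 basal keratinocyte markers summed to 65850 CPM on average (counts scaled to a total of 1000000 per cell), while the T cell, Langerhans cell, Merkel cell, melanocyte, fibroblast and endothelial lists averaged 1.16 to 26.03 CPM. By a fit to genes that are high in few wells, reads carried over from other wells made up a median of 7.86% of a cell's counts (2.49% to 43.4%). The summed share, its relations with Krt10 and the cycle scores, the gene counts against these, the count of variable genes, the mean rho over pairs and the subunit ratio were recomputed with the expected carried-over reads subtracted; other values were not.

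A ribosome carries most of its proteins in a single copy, and cells keep the output of the many genes in step. The messenger RNAs of these genes usually begin with a cytosine followed by a run of pyrimidines, the 5′ terminal oligopyrimidine (TOP) motif, through which mTOR and Larp1 set how strongly they are translated. In epidermis, basal cells divide and build ribosomes, and with differentiation they switch on Krt10 and detach, in no order fixed here. Nearly every mammalian ribosomal protein gene has also left processed pseudogenes, intronless copies of its messenger RNA elsewhere in the genome, and this bears on how reads can be counted.

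The sequences that matter most for reading the values are coding sequences shared with such copies. The first 60 coding bases of Rps27 (small subunit, chr3:90212522-90213651, minus strand) are set beside Rps27rt, a copy at chr9:114982366-114982739 on the minus strand, and beside its functional paralog Rps27l (chr9:66946086-66949516, plus strand). Positions are on GRCm38 and sequences come from GENCODE M21 transcripts, and pairs were chosen after the values were seen. Capitals mark bases that differ within a pair, and the first pair has none.
Rps27: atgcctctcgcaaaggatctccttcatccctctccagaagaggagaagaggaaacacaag
Rps27rt: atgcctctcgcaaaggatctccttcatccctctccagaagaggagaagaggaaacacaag
Rps27, against Rps27l: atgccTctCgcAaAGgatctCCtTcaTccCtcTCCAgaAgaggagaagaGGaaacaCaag
Rps27l: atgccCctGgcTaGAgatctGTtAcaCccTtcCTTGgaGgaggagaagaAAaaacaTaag

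Rps27 and Rps27rt are identical over all 252 coding bases, whereas Rps27l differs from Rps27 at 18 of these 60 bases and at 60 of 252. Rps12 of the small subunit (chr10:23785183-23787275, minus strand) has an equally exact copy, Rps12-ps3 (chr19:59322290-59322783, plus strand), identical over all 396 coding bases. Rps4x (chrX:102184941-102189394, minus strand) and its intronless relative Rps4l (chr6:148354656-148355598, plus strand) differ at 7 of the first 60 coding bases and are 79.6% identical over 789.
Rps12: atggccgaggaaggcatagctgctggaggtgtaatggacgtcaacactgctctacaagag
Rps12-ps3: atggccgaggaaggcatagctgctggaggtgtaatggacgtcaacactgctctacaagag
Rps4x: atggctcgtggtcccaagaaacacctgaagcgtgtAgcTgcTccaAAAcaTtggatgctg
Rps4l: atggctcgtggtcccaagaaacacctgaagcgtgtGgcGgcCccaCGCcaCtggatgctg

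Among the Rps27 and Rps12 genes, low counts went with coding sequence that is fully shared. The Rps4 pair went the other way. Rps4l has more of its 50-base transcript windows found in no other gene, yet averaged 89.3 CPM against 304 CPM for Rps4x. Rps27 averaged 19.5 ± 30.8 CPM (SD over cells), with a median of 5.58 CPM and reads in 69.1% of cells (exact 95% interval 62.02% to 75.7%), and its exact copy Rps27rt averaged 4.13 CPM. Rps27l, which can be told apart, had reads in every cell, with 134.01 CPM in the lowest, 417 CPM in the median and 1934 CPM in the highest cell. Per kilobase of transcript the means were 918 CPM for Rps27l and 56.4 CPM for Rps27. Rps12 had reads in 5.85% of cells (exact 95% interval 2.96% to 10.2%) and averaged 0.421 CPM, and Rps12-ps3 had none. Intervals cover counting error only. A read from an identical stretch cannot be assigned to one gene, and how such reads were treated upstream is not given in the sources used here. Low values of Rps27 and Rps12 can therefore not be read as low expression.

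Starts of transcription are shown next, because the TOP motif lies there. The RefSeq promoter table (GRCm38.p6) holds 61 of the 83 genes. The 30 bases around the annotated start, 15 on each side, are given for Rplp0 and Rplp2 of the P stalk and for the 5 most abundant genes per kilobase that the table holds, with the longest run of C and T in capitals. They come from chr5:115559452-115559481 for Rplp0, chr7:141447636-141447665 for Rplp2, chr9:64173372-64173401 for Rpl4 and chr7:3704026-3704055 for Rps9, on the plus strand. Those of Rps3 (chr7:99483695-99483724) and Rpl41 (chr10:128549154-128549183) are on the minus strand.
Rplp0: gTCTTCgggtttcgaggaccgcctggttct
Rplp2: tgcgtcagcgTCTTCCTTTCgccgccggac
Rpl4: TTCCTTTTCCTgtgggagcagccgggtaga
Rps9: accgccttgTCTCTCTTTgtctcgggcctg
Rps3: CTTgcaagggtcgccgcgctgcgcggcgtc
Rpl41: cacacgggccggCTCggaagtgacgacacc

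Rpl4, Rplp2 and Rps9 carry runs of 11, 10 and 9 pyrimidines in these windows, and Rplp0, Rps3 and Rpl41 runs of 5, 3 and 3. The runs of Rplp2 and Rps9 cross the RefSeq start, while those of Rpl4, Rplp0, Rps3 and Rpl41 lie before it. A run in the window is therefore not by itself a TOP motif. RefSeq starts lay up to 281 bases from the GENCODE start in these genes, so a run can fall outside the window. Within 50 bases on either side of the start, a C or T run of at least 10 bases was found in 40 of 61 ribosomal protein genes, 65.6%, against 18.1% of all 27025 genes in the table. A run of at least 15 bases was found in 8 of 61, 13.1%, against 3.52% of all genes. Over 300 bases and both strands, CCGGAAGT, a core bound by ETS factors such as Gabpa, was present in 19.7% of the set and 3.93% of all genes. AAGATGGC, the core of the Yy1 motif, was present in 8.20% of the set and 2.86% of all genes, and TATAAA in 11.5% of the set and 14.1% of all genes. These matches describe letters in a window and not bound sites.

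Levels of single genes covered a wide range. Between genes they are compared as mean CPM per kilobase of the chosen transcript. Among the highest 10 were Rpl32 at 4150, Rplp1 at 3544, Rpl8 at 3480 and Rps14 at 3121 CPM per kilobase. Rplp0 (2303), Rpl4 (2155), Rps9 (2129), Rps3 (2102) and Rpl41 (1732 CPM per kilobase) also belonged to them, and each of these had reads in every cell. Rpl32 had 1152 CPM in the lowest, 2083 in the median and 4290.0 in the highest cell.

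**Figure D1:**
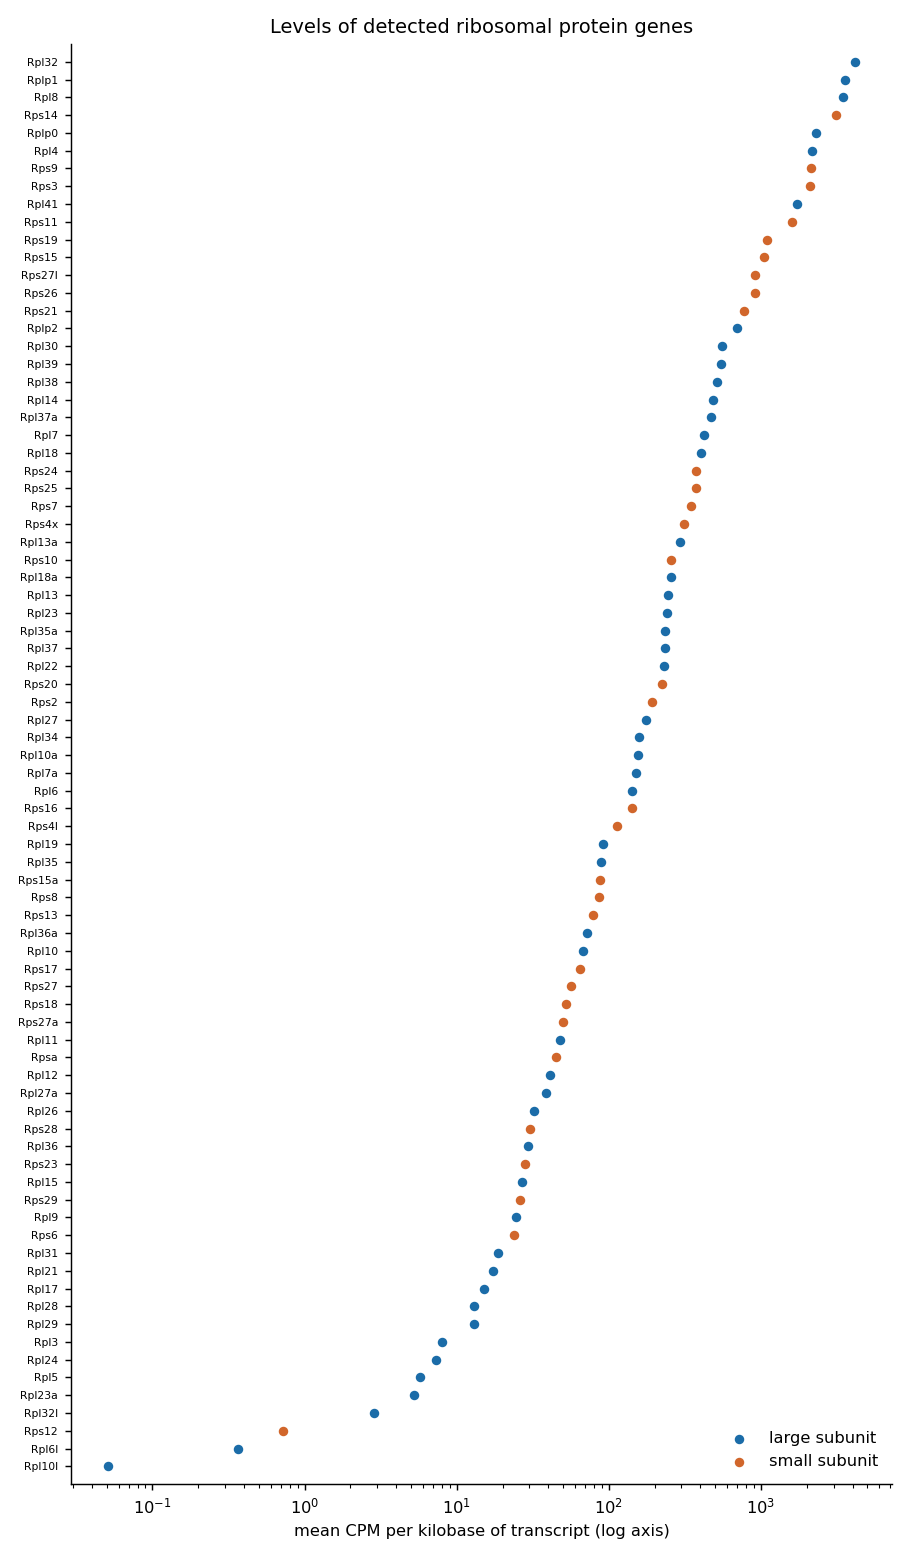
Mean CPM per kilobase of transcript over all cells (x axis, log scale) for ribosomal protein genes with a read (rows), coloured by subunit. Rpl10l lies at 0.0511 and Rpl32 at 4150, and genes of both subunits are spread over most of the range between them.

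In all, 10 genes averaged at least 1000 CPM, 53 at least 50 CPM and 5 under 1 CPM, and 46 had a read in every cell. The 5 most counted genes, among them Rps3, Rpl4, Rplp0 and Rpl8, took 43.7% of the set's counts and the 10 most counted took 65.3%. At the low end of detection stood Rpl23a at 5.23, Rpl32l at 2.88, Rps12 at 0.721, Rpl6l at 0.367 and Rpl10l at 0.0511 CPM per kilobase. Rpl32l and Rpl6l are annotated in GENCODE as processed pseudogenes although their symbols meet the rule, and Rps4l as a transcribed one. The order of the genes was nearly the same on both plates, with a Spearman's rho of 0.997 between plate means over 83 genes, which share the annotation and the upstream counting.

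**Figure D2:**
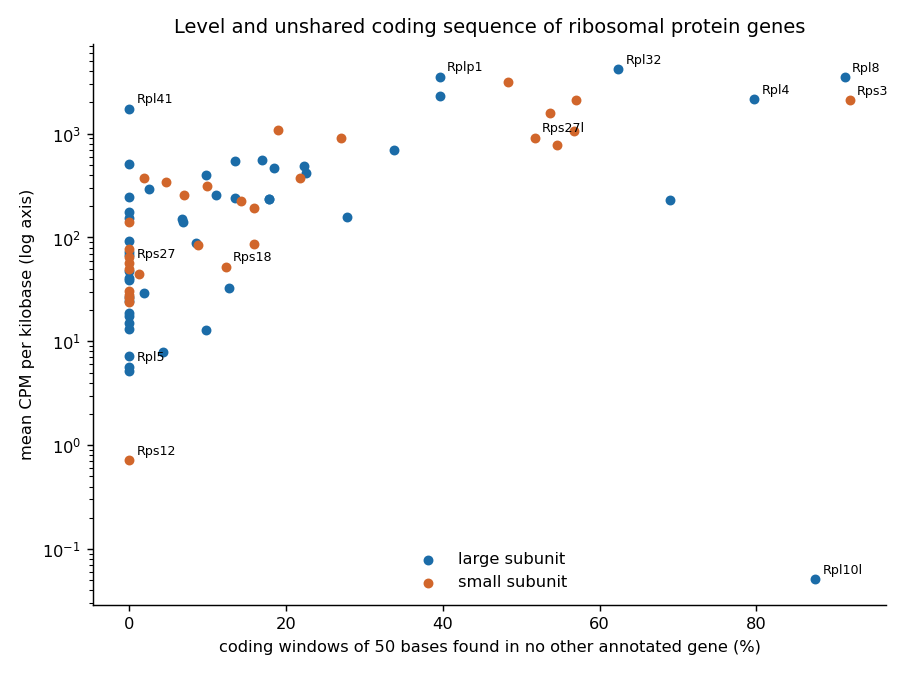
Mean CPM per kilobase (y axis, log scale) against the percent of 50-base coding windows found in no other annotated gene (x axis), with points for ribosomal protein genes with a read and a coding sequence, coloured by subunit. Rps3 and Rpl8 lie at the top right with 91.9% and 91.3% unshared, and of the genes at 0% Rpl41 is the highest, at 1732. Rpl10l, a gene of testis, lies apart at the lower right.

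Across the 76 protein-coding genes of the set with at least 1 CPM, the level per kilobase ran with the share of the coding sequence that is found in no other annotated gene. Spearman's rho was 0.763 for windows of 50 bases, 0.743 for 75 bases and, over 75 genes, 0.744 for 100 bases, against -0.114 for transcript length. Over windows of the whole transcript the rho was lower, at 0.515, 0.594 and 0.624 for 50, 75 and 100 bases. Sharing is not only with copies elsewhere. In 11 of the 76 genes over 10% of the transcript's windows were shared with a gene overlapping at the same place, such as 45.3% in Rpl5. Dividing by the unshared kilobases instead of the transcript's narrowed the SD of the log2 level across genes only to 2.18, against 2.51, and the 10 lowest genes had 6.16% to 73.8% unshared windows. The minimum of 1 CPM left out Rps12, Rpl10l, Rpl3l and Rpl39l. The 11 genes with at least 50% unshared coding windows had a median of 2102 CPM per kilobase, and the 35 genes with under 5% had a median of 44.8 (5.23 to 1732). Rps3 is unshared over 91.9% of its coding windows and Rpl8 over 91.3%, while Rpl41 stood high with 0%, its unshared windows lying outside the coding part. This relation was looked for after the values were seen, is a description across genes, and does not separate expression from the way shared reads were counted.

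The P stalk is the flexible arm of the large subunit that draws in translation factors, and its genes were all abundant. Rplp0, the stalk's base, had 949 CPM in the lowest, 3073 in the median and 7496 in the highest cell. Rplp1 had 999, 1757 and 3659 CPM, and Rplp2, its partner, had 265, 655 and 1464 CPM in the lowest, median and highest cell. Per kilobase Rplp2 stood at 691 CPM, below Rplp1 at 3544, and the share of unshared coding windows was 33.8% for Rplp2 and 39.6% for Rplp1.

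Genes of the peptide exit tunnel wall differed from each other, with 2155 CPM per kilobase for Rpl4, 542 for Rpl39 and 15.1 for Rpl17. Rpl4 averaged 3315 ± 812 CPM and Rpl39 332 ± 129.4 CPM (SD over cells), both with reads in every cell. Rpl17 averaged 11.7 ± 14.8 CPM, with no read in the lowest and 80.97 CPM in the highest cell. None of the 50-base coding windows of Rpl17 was unshared, against 79.7% of those of Rpl4 and 13.5% of those of Rpl39.

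Genes known for signalling roles were among the low ones, at 5.71 (Rpl5), 23.8 (Rps6), 47.5 (Rpl11) and 50.1 CPM per kilobase (Rps27a). Rpl5 and Rpl11 encode the proteins that, with 5S ribosomal RNA, can bind Mdm2 and stabilise p53. Rpl5 had reads in 62.2% of cells and averaged 11.7 ± 20.6 CPM, and Rpl11 had reads in 97.3% of cells and averaged 39.5 ± 30.1 CPM. Rps6, the protein phosphorylated by S6 kinase, averaged 20.9 ± 32.96 CPM with reads in 75.5% of cells. Rps27a, which encodes ubiquitin fused to a ribosomal protein, averaged 39.6 ± 39.6 CPM with reads in 90.96% of cells. All 4 had 0% unshared coding windows, so reads from their coding sequence carry the same limit as those of Rps27. Over the whole transcript the limit differs. There 6.16% (Rpl5), 15.4% (Rps6), 37.8% (Rpl11) and 28.03% (Rps27a) of the 50-base windows were unshared, against 1.35% for Rps27. How far shared sequence lowers the counts of each gene was not tested, so these are not read as low expression.

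Tissue-restricted paralogs were nearly absent. Rpl3l, known from skeletal and heart muscle, and Rpl39l, known from the male germ line, had no read in any cell. A count of 0 cells, taken as up to 3, allows up to 1.60% of cells with a read, which limits detection at this depth and not expression. Rpl10l, a retrogene active in testis, had reads in 2 cells and at most 6.78 CPM. The coding windows of Rpl3l and Rpl39l are 100% unshared and those of Rpl10l 87.5%.

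Rps4l had reads in 90.96% of cells, but they were unevenly spread. It had 0 CPM in the lowest, 21.9 in the median and 639 in the highest cell (coefficient of variation 138.9%), and exceeded 3 times the carry-over expected from other wells in 47.3% of cells (exact 95% interval 40.0% to 54.7%). Rps4x, with 74.3, 292 and 722 CPM in the lowest, median and highest cell, exceeded it in 98.4%. Spearman's rho between them was -0.0248 over all cells, 0.0893 on plate 1 and -0.151 on plate 2, too weak to read.

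Together the set made up a few percent of the counts in every cell. Reads from shared sequence may be missing from this sum, so it is a share of counts and not of messenger RNA. The summed share per cell was 2.49% in the lowest, 3.88% in the median and 7.03% in the highest cell, with medians of 3.87% on plate 1 and 3.92% on plate 2. Its coefficient of variation over cells was 15.6%. The highest cells were in plate 1 well F2 (7.03%), plate 2 well E4 (6.23%) and plate 1 well F1 (6.06%). The spike-in shares of these 3 cells were 1.60%, 3.32% and 1.53%, against a median of 0.618%, and they had 6095, 6686 and 6864 genes with a read, against a median of 7579. The part of low RNA content in their shares was not tested.

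**Figure D3:**
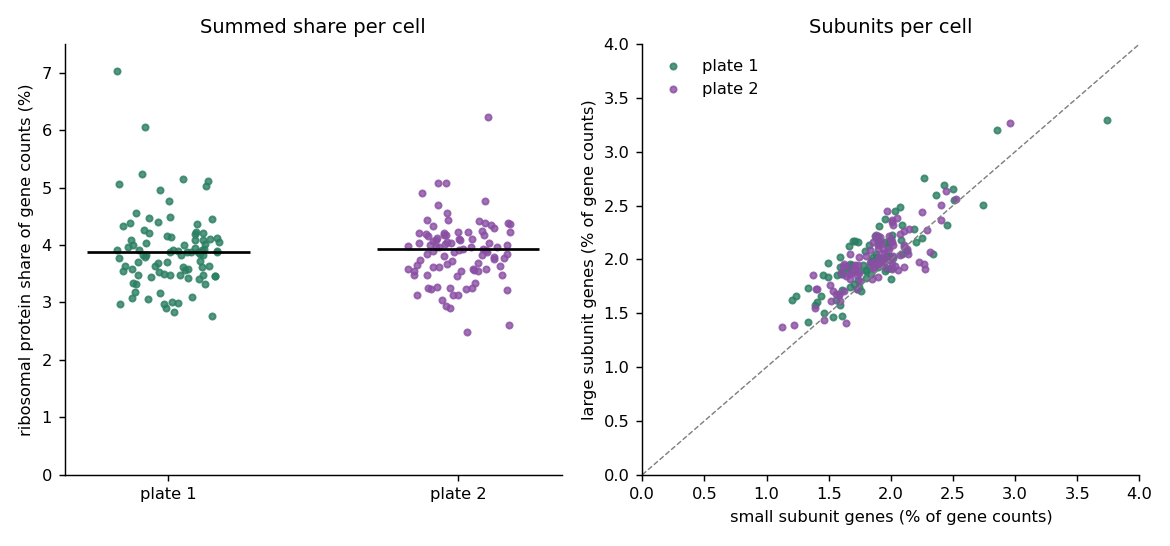
Left, summed share of ribosomal protein genes in the counts over genes (%) for each cell by plate, with the plate median as a line. Right, large against small subunit genes as a percent of counts per cell, with a dashed line of equality. Cells lie around 3.88% on both plates, 3 of them stand above 6%, and the shares of the subunits run together (rho 0.786).

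Large and small subunit genes varied together. The ratio of their summed counts was 0.838 in the lowest, 1.07 in the median and 1.35 in the highest cell, with a coefficient of variation of 9.27%. Spearman's rho between the shares of the subunits was 0.786 over all cells, 0.797 on plate 1 and 0.770 on plate 2, values that share library and denominator. The ratio had a rho of 0.0373 with Krt10 (0.0124 and 0.106 by plate). Without the genes that have a named pseudogene row, 24 genes remained, their median share was 2.13% and the ratio 0.694, so the ratio depends on which genes are counted.

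Gene by gene, 37 of the 76 genes that passed the filter on low values had a rho of at least 0.2 on both plates with the summed share of the others, and 0 had one of at most -0.2, a limit that 0.482% of all genes reached. The filter asked for 10 CPM in at least 10% of cells. Among all 9345 genes tested the share at or above that limit was 0.835% and among genes of at least 50 CPM 1.95%, and of those outside the set 41 of 9269, or 0.442%, reached it. All 37 averaged at least 50 CPM. Rpl32 followed the others most closely, with a rho of 0.724 (0.747 on plate 1, 0.688 on plate 2), then Rps14 with 0.624, Rps9 with 0.577 and Rps20 with 0.531. Over pairs of the 53 genes of at least 50 CPM the mean rho was 0.132, against 0.0143 over pairs of all genes at that level. All these values share library and denominator.

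**Figure D4:**
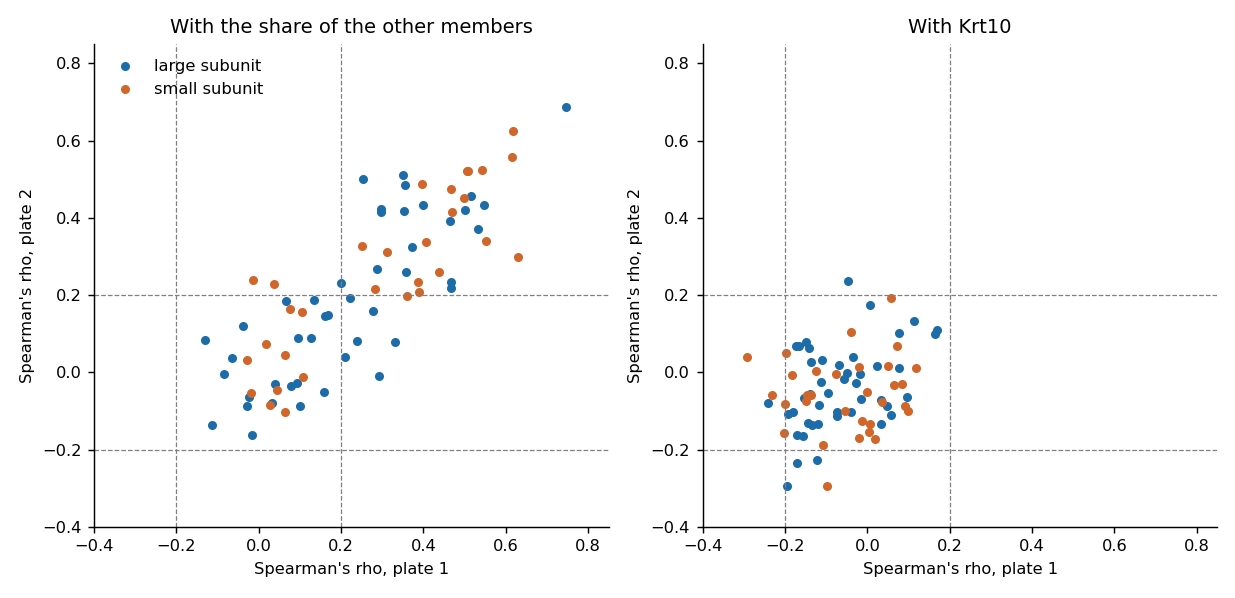
Spearman's rho of each tested ribosomal protein gene on plate 1 (x axis) and plate 2 (y axis), with the summed share of the other genes of the set (left) and with Krt10 (right), dashed lines at -0.2 and 0.2. On the left 37 of 76 genes lie beyond 0.2 on both plates, and on the right none lies beyond either limit on both.

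Genes of the same apparatus outside the rule joined this pattern in part. Of 7 further ribosomal protein genes, 3 reached a rho of 0.2 with the share on both plates. Among them were Rps3a1 of the small subunit (0.538 and 0.589) and Rack1, a scaffold on the small subunit (0.286 and 0.267). Rpl36al (268 ± 112.8 CPM) did not reach it, at 0.0818 and 0.0291. Of 15 translation factors and other TOP messenger RNAs, 3 reached it: the elongation factors Eef1a1 (0.399 and 0.493) and Eef1b2 (0.257 and 0.363), and Tpt1, a growth-related TOP transcript (0.457 and 0.277). Eef2, the translocation factor, had 0.257 and 0.137, and Npm1, a nucleolar chaperone, -0.0136 and 0.162.

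Among factors that build or regulate ribosomes, no gene reached the limit with the share, which 0.442% of genes outside the set did, so counts of 0 in lists of this size are near that background. Of 26 ribosome biogenesis genes 0 reached 0.2 on both plates, with a median rho of -0.0347, and the rho of their mean score with the share was -0.134 on plate 1 and -0.178 on plate 2. Ncl, the nucleolar protein nucleolin, averaged 1771 ± 617 CPM and had a rho of -0.139, Nhp2 -0.0797, Nop58 -0.0305 and Nop10 0.0332. Of 13 growth control genes 0 reached it, among them Rheb (0.0120), Myc (0.128), Eif4ebp1 (0.0281) and Maf1 (-0.0237). Of 78 mitochondrial ribosomal protein genes 0 did, with a median rho of 0.00362, against -0.0205 over all genes tested.

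Krt10 marks cells that have begun to differentiate. In CPM without further correction, the share's rho with it stayed within the limit of 0.2 on both plates. Krt10 had 185.4 CPM in the lowest, 882 in the median and 45289 in the highest cell. Spearman's rho of the share with Krt10 was -0.150 over all cells (Pearson's r of log2 values -0.154), -0.189 on plate 1 and -0.137 on plate 2. Leaving out the 2 cells most distant from the median Krt10 gave -0.145. With the expected carried-over reads subtracted, the rho over all cells was -0.2002, just past the limit. With scran size factors from pooled cells, the set's summed counts had a rho of 0.0290 with Krt10. The size and sign of this weak relation therefore depend on the processing. Of the 12 early differentiation genes 1 reached a rho of -0.2 with the share on both plates, Sbsn of the upper layers (-0.218 and -0.217), against 0.482% of all genes. With the set's counts and Krt10 both taken relative to spike-in reads instead of each cell's total, the rho was 0.365. That scale keeps each cell's total RNA on both sides, which the share divides out. The value is therefore not comparable with the share's rho, and no change of direction is read from it. The cause of the difference was not tested.

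**Figure D5:**
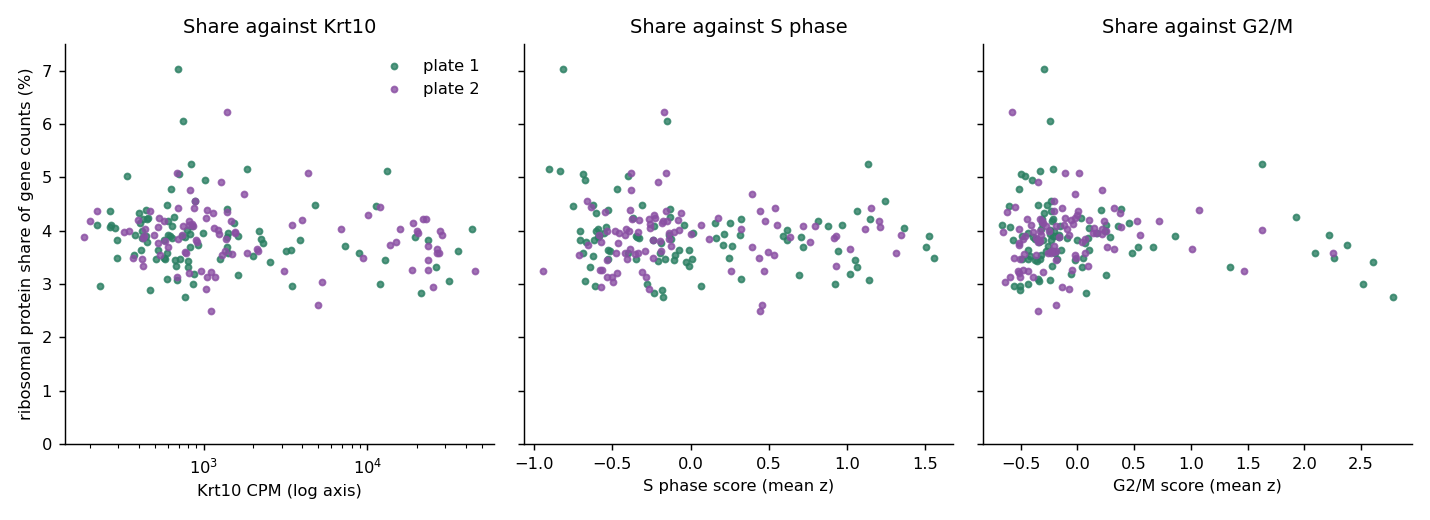
Summed share of ribosomal protein genes (y axis, % of counts over genes) for each cell against Krt10 CPM (log axis), the S phase score and the G2/M score (mean z scores), coloured by plate. The cells form a band around 3.88% along all 3 axes, with a rho of -0.150 for Krt10.

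No gene of the set passed the limit with Krt10 in either direction. Of 76, 0 had a rho of at most -0.2 on both plates and 0 of at least 0.2. Of all genes tested 1.96% and 1.82% did, so counts of 0 in a set of this size are near that background. The median rho of the set was -0.0451, against -0.00458 over all genes. Over all cells 57 of 76 genes, 75%, had a rho below 0, against 52.1% of all genes tested. By plate, 38 of 76 were below 0 on both and 11 above 0 on both, and the shares of all genes for this are not given. Genes of the set vary together and share library and denominator, so they do not count as independent. Nearest to the lower limit were Rpl32 (-0.196 on plate 1, -0.295 on plate 2), Rpl13 (-0.171, -0.234), Rpl41 (-0.171, -0.162), Rpl13a (-0.158, -0.166) and Rps3 (-0.203, -0.157). Rpl37 (-0.135, -0.137), Rpl4 (-0.144, -0.132) and Rpl23 (-0.123, -0.226) followed. Highest were Rpl35a (0.112 on plate 1, 0.134 on plate 2), Rplp1 (0.168, 0.110), Rpl38 (0.165, 0.0978) and Rpl34 (0.0758, 0.101). Rps4l, Rps27a, Rps19 and Rpl18 came next, with 0.0150 to 0.0672 on the plate nearer to 0. With the early differentiation score of 12 genes in place of Krt10, 0 of 76 passed the upper and 0 the lower limit. Of all genes 1.99% and 2.38% did, so these counts are near the background too. Rpl32 was again the lowest with that score (-0.159, -0.276). With stray reads subtracted, 3 genes passed the lower limit with Krt10, and with cells thinned to 75000 counts 2 did. Shares of all genes are not given for these settings.

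For scale, all 15 basal keratinocyte markers passed the lower limit with Krt10, 9 of 23 S phase genes did, and 10 of 12 early differentiation genes, Krt10 itself among them, passed the upper limit. Some other parts of the translation apparatus also passed the lower limit. Rack1 had -0.245 on plate 1 and -0.262 on plate 2, Eef2 -0.286 and -0.261, and Npm1 -0.203 and -0.245. Eef1a1 (-0.210, -0.0536) and Eef1b2 (-0.159, 0.0220) did not. Among genes of the p53 response, Cdkn1a, the cell cycle inhibitor p21, had 0.490 and 0.545, and Trp53 had -0.284 and -0.346. Gas5, a host RNA of small nucleolar RNAs, had -0.0410 and -0.273, and Zfas1, another such host, -0.227 and -0.148. Rps27l, a p53 target in human and mouse cells, had a rho of 0.0347 and -0.197 with Cdkn1a.

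The cell cycle scores showed no steady relation with the share. They average z scores over 24 S phase and 33 G2/M genes. The share's rho with the S phase score was -0.161 on plate 1 and 0.166 on plate 2, and with the G2/M score -0.0804 on plate 1 and 0.233 on plate 2. Over all cells it was -0.0287 for S phase (Pearson's r -0.0686, rho without the 2 farthest cells -0.0217) and 0.0663 for G2/M (r -0.0802, rho without the 2 farthest cells 0.0945). No gene of the set reached 0.2 on both plates with the S phase score (0 of 76, against 3.67% of all genes) or with the G2/M score (0 of 76, against 2.18%). In the lower direction the counts were 0 of 76 for S phase and 0 of 76 for G2/M, against 0.44% and 0.15% of all genes. Counts of 0 in a set of this size are near these shares. Highest with the S phase score were Rpl21 (0.217, 0.146), Rpl36a (0.146, 0.147), Rpl5 (0.136, 0.0989), Rpl23 (0.0961, 0.145) and Rps13 (0.0780, 0.155). Highest with the G2/M score were Rplp2 (0.140, 0.213), Rps29 (0.105, 0.119), Rplp1 (0.0954, 0.154), Rpl19 (0.235, 0.0886) and Rpl23 (0.137, 0.0877). With the set and the score genes both relative to spike-in reads, the rho was 0.447 for S phase and 0.329 for G2/M. Both sides then keep each cell's total RNA.

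Variation between cells was set against that of spike-in RNA of the same level, as the squared coefficient of variation over the trend fitted to the spike-ins. Of the 53 genes of at least 50 CPM, 0 stood at 2 times that trend or more on each plate, against 2.39% of all 3685 genes at that level, a count near that background. Among the most variable were Rps3 (2.22 times the trend on plate 1, 1.85 on plate 2), Rpl4 (1.60, 1.43), Rplp0 (1.87, 1.33) and Rpl8 (1.57, 1.30), which are also the most counted. Relative to spike-in reads, 9 genes passed the limit, and the share of all genes on that scale is not given.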

How the data were processed

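Read counts per gene were analysed for single-cell Smart-seq2 libraries, 94 on each of 2 plates. The authors deposited whole-number counts, not normalized. Tools named by the submitters' processing notes are STAR 2.5.2b, HTSeq 0.6.0 and cutadapt 1.13, with the build GRCm38. Not given in the sources used here are parameters, read length, annotation release and the treatment of reads that match several places. The counts carry no molecular identifiers, so amplified copies are counted, and no source states strand-aware counting.

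Of 49585 gene rows, 49326 identifiers matched a symbol, and 92 spike-in rows were left out of totals. Counts were scaled to CPM. Cells needed at least 50000 counts, 1500 genes and at most 15% mitochondrial counts; all cells passed, with 79868 to 1093805 counts. A doublet caller was not run, since 1 cell was sorted per well.

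The genes, lists and tests were chosen with earlier results of these data known. Genes entered per-gene comparisons at 10 CPM in at least 10% of cells. A list score averages the z scores of log2(CPM + 1) of those list genes that reach 10 CPM in 5% of cells or more. Spearman's rho across cells was computed with each gene of the set left out of the summed share it was compared with. Scores were kept whole, and the genes of a score's list, or Krt10 itself, were left out of the shares of all genes. A gene was counted when rho passed 0.2 on both plates. With 1 group and no named animals these are rules of size, not tests, and cells share library and denominator. Variability was set against the trend a1/mean + a0 of the spike-ins on each plate, at a limit of 2 times. Transcripts, positions and lengths come from GENCODE M21: the RefSeq-linked principal transcript, the shortest where several qualified, which remains long for Rps15a, Rps20 and Rpl21. Sequence sharing was counted as windows of 50, 75 or 100 bases found, on either strand, in no transcript of another gene. Carry-over between wells was fitted on 118 genes, as shares of a well's reads by index row and column.

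Named genes are the 10 highest and 5 lowest detected per kilobase, the 8 highest and 8 lowest with Krt10, 5 each with the cycle scores and the spike-in trend, the role genes, genes with no read, and the most abundant of the lists on translation and ribosome formation; marker and cycle lists are given as counts. Some genes under this rule are not reported here. The code ran on Python 3.11.15 with numpy 2.4.6, scipy 1.17.1 and pandas 2.3.3, and on R 4.3.3 with scran 1.30.0, and was checked on simulated data. A total of 14 other settings were tried, and 1 more, leaving out the 3 cells of highest share, was added after seeing the data.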

Additional observations from a re-analysis of the deposited data

Results flagged for a closer look

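Reads on rows named as ribosomal protein pseudogenes, which the comparisons do not use, reached a mean sum of 351 CPM per cell. There were 280 such rows, 205 of them with a read, and their counts came to 0.916% of those of the ribosomal protein genes. In counts not corrected for length, Rpsa-ps10 led with 128.4 CPM and reads in every cell, against 86.9 CPM for Rpsa. Rpl3-ps1 followed with 87.2 CPM and reads in every cell, against 10.75 CPM for Rpl3 of the large subunit, and then Rps16-ps2 with 34.5 CPM, against 156.5 CPM for Rps16. Spearman's rho of the summed pseudogene rows with the summed share of the ribosomal protein genes was 0.450 over all cells (0.462 on plate 1, 0.431 on plate 2), values that share library and denominator. Whether these reads come from the pseudogenes or from their parent genes was not tested.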

How the results depend on the processing

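No paired analysis was possible because all cells form 1 group. Of the values recomputed under other settings, 33 moved past the limits set (a rho by 0.1, a count by 1.5 times, other values by 1 SD over cells) and all others stayed within them. Relative to spike-in reads, the set's counts, Krt10 and the scores all keep each cell's total RNA. The summed counts then had a rho of 0.365 with Krt10, 0.447 with the S phase score and 0.329 with the G2/M score. On both plates 41, 56 and 35 genes were higher with them, pairs had a mean rho of 0.357, and 9 genes were variable. With scran size factors from pooled cells, the rho was 0.0290 with Krt10 and -0.157 with the S phase score, and 1 gene was variable. These scalings define no share, so the summed share has no value there. Without keratin, mitochondrial and ribosomal protein genes in the denominator the share was 4.71%, and 1 gene was lower with Krt10. With carried-over reads subtracted 3 genes were lower with Krt10 and 1 was variable, and with thinning to 75000 counts 2 were lower. Without genes that have a named pseudogene row the share was 2.13% and the ratio of large to small subunit 0.694. On plate 1 alone the rho was -0.161 with the S phase score and -0.0767 with the G2/M score, 5 genes were lower with Krt10, 3 higher with the S phase score, 2 higher with the G2/M score and 1 was variable. On plate 2 alone the rho was 0.164 and 0.248, 4 genes were lower and 1 higher with Krt10, 5 higher with the S phase score, 6 with the G2/M score and 1 was variable. Scores are rebuilt within a plate there. Pearson's r with the G2/M score was -0.0802, and with a variability limit of 1.5 there was 1 variable gene. The causes of these shifts were not tested. Shares of all genes are not given for these settings, so the counts of genes passing cannot be read as particular to the set. Leaving out the 3 cells of highest share moved no value past the limits. Depth limits the low genes: those under 10 CPM average a few reads per cell, and shared sequence limits them further.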

Other observations

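Outside the set, the genes whose counts ran most closely with the summed share were Rps3a1 (rho 0.538 on plate 1 and 0.589 on plate 2) and Eef1a1 (0.399 and 0.493). Rps3a3 (336 CPM) followed with 0.389 and 0.380, then Fth1, which encodes the ferritin heavy chain, with 0.364 and 0.397. Next came the pseudogene row Rpl3-ps1 (0.441 and 0.360), Gm10263 (0.368 and 0.336) and Psmg4, a proteasome assembly chaperone, with 0.361 and 0.321. In the lower direction 45 genes passed the limit on both plates, among them Rtn4 (-0.308 and -0.355), Lypd3 (-0.372 and -0.272), Ppl, which encodes periplakin (-0.253 and -0.328), and the mitochondrial genes mt-Nd1 (-0.396 and -0.258) and mt-Co1 (-0.227 and -0.238). Malat1, a nuclear long noncoding RNA, had -0.264 and -0.111, and the summed mitochondrial share -0.275 and -0.0365, so neither of these passed the limit on both plates. The late differentiation score had -0.252 and -0.120, and Krt14 of basal cells 0.255 and 0.0924. These values share library and denominator and were picked from all genes tested.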
